A study of Mus musculus with 6 samples.

Results

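Receptors for extracellular nucleotides and adenosine, and the enzyme that links both ligands, were followed in mouse dendritic cells derived from bone marrow. The 9 genes were chosen by name, out of 23398 genes measured: the ATP-gated channels P2rx4 and P2rx7, the P2Y receptors P2ry2, P2ry6, P2ry13 and P2ry14, the adenosine receptors Adora2a and Adora2b, and the ectonucleotidase Entpd1. Each symbol matched 1 gene, and all 9 passed the filter on low values. The cells were kept in DMEM with fetal bovine serum, penicillin and streptomycin, and received Ca(OH)2 nanoparticles (3 libraries) or vehicle (3 libraries) for 12 hours, so that the groups differ by the particles alone as far as the labels say. The labels give no mouse strain, age, sex or genotype, no particle dose, no cytokine used to grow the cells and no sign of whether libraries of a group came from separate mice or cultures. The p-values below therefore measure the spread between these libraries, which may be technical.

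Cells release ATP and UTP when they are stressed, damaged or stimulated. P2X receptors are cation channels opened by ATP, and P2Y receptors are G protein-coupled receptors for ATP, ADP, UTP, UDP or UDP-sugars. Ectonucleotidases on the cell surface strip the phosphates from these nucleotides in steps, down to adenosine, which then acts on its own G protein-coupled receptors. In dendritic cells and macrophages the ATP arm is known for inflammasome activation and danger sensing, and the adenosine arm for raising cAMP and restraining inflammatory cytokine release.

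Of the 9 genes, 6 passed an adjusted p of 0.05 in limma's moderated test over all 10682 tested genes, 4 of them higher (Adora2a, Adora2b, P2ry14 and P2rx4) and 2 lower (P2ry6 and Entpd1) with nanoparticles. Over all tested genes 33.2% passed, 17.0% higher and 16.2% lower. The values of the groups did not overlap in 7 of the 9 genes, 4 higher and 3 lower, against 52.1% of tested genes, 25.9% higher and 26.2% lower. The median log2 change was 0.07 over the 9 genes and -0.0010 over all tested genes. Values are FPKM (fragments per kilobase of gene model, divided by a scale per library that is not its total of reads), so levels can be compared between genes. Log2 changes are those of FPKM + 1, which understates the change of low genes. RNA was measured in bulk, and in such data fewer cells of a type and less RNA per cell cannot be told apart.

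**Figure D1:**
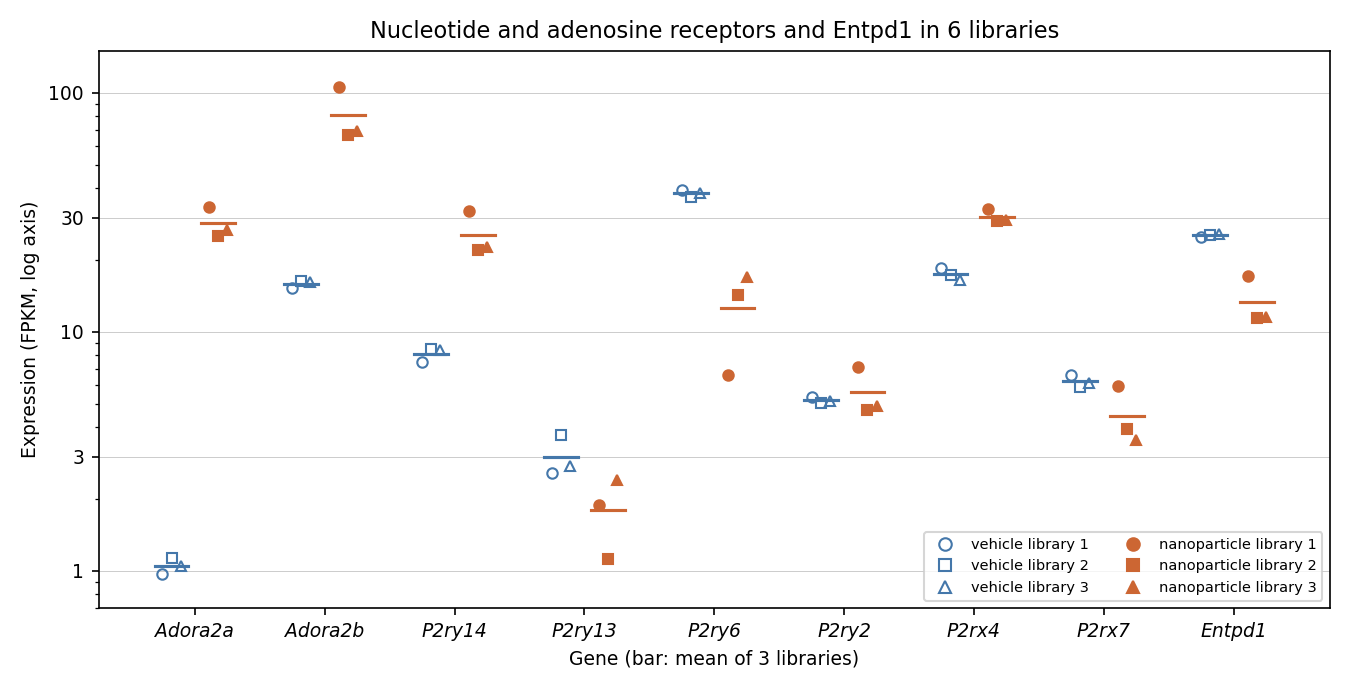
Expression of the 9 genes in FPKM on a log axis, with 1 point per library (open blue for vehicle, filled orange for nanoparticles, the symbol giving the library number) and bars at the mean of 3 libraries. Adora2a moves from about 1 FPKM to between 25.2 and 33.4 FPKM, and P2ry6 and Entpd1 lie lower in every nanoparticle library than in any vehicle library.

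The libraries held 17286100 to 21981035 recovered reads. The 9 genes rested on 47 reads (P2ry13) to 5777 reads (P2ry14) in a single library. Nanoparticle library 1 stood apart from the others of its group: across tested genes, log2(FPKM + 1) correlated at 0.9926 to 0.9938 between vehicle libraries and at 0.9895 between nanoparticle libraries 2 and 3, but at 0.9423 and 0.9282 between library 1 and these (a description across genes, which are not independent). Without nanoparticle library 1, 7 of the 9 genes passed, the addition being P2rx7, against 64.8% of all tested genes. The dendritic cell markers summed to 5422 to 5833 FPKM in vehicle and 3202 to 6988 FPKM in nanoparticle libraries, and of 13 genes 11 were tested, 2 higher and 4 lower. Itgax, Cd74 and H2-Ab1 were abundant in every library, while Flt3 was at 0 to 0.0793 FPKM. Cd209a, among the 4 called lower, went from 5.17 to 6.21 FPKM in vehicle to at most 0.0763 FPKM with nanoparticles. It passed the filter through the vehicle libraries alone. The 2 called higher were Ccr7, with means of 2.29 and 112 FPKM in vehicle and nanoparticle libraries, and Irf8, with means of 8.68 and 21.2 FPKM. The macrophage list, for which all 12 genes were tested, was abundant as well, with a summed level of 15402 to 16786 FPKM in vehicle and 13070 to 18639 FPKM in nanoparticle libraries, 4 of its genes being higher and 4 lower. Summed levels were 0.391 to 0.575 FPKM in vehicle and 0.818 to 1.98 FPKM in nanoparticle libraries for the T and NK cell list (0 of 9 genes tested), and 0.261 to 0.470 and 0.417 to 0.721 FPKM for the B and plasma cell list (0 of 7 tested). The sums were 267 to 299.98 and 237 to 310 FPKM for the neutrophil list (5 of 15 tested, 3 higher and 1 lower), 3.93 to 6.16 and 10.3 to 26.1 FPKM for the mast cell and basophil list (4 of 8 tested, 1 higher and 1 lower), and 219 to 246 and 143 to 697 FPKM for the platelet and megakaryocyte list (2 of 5 tested, neither called). In the neutrophil list Mmp8 was at 230.2 to 259 FPKM in vehicle and 129 to 133 FPKM with nanoparticles. It made up most of the sum in vehicle and was its largest single part with nanoparticles. S100a8 (33.4 to 36.0 and 50.1 to 109 FPKM), Lcn2 (0.146 to 0.346 and 46.4 to 52.5 FPKM) and Csf3r (0.518 to 0.695 and 3.85 to 4.90 FPKM) were called higher. Lcn2 and Csf3r passed the filter through the nanoparticle libraries alone. Mpo, Elane and Ly6g were at no more than 0.307 FPKM in any library. S100a9, Ngp and Camp, named after their values were seen, were at no more than 1.65, 0.901 and 0.190 FPKM in vehicle. They were at 0.352, 0.0501 and 0.242 FPKM in nanoparticle library 1, but at 13.2, 4.30 and 1.83 FPKM in library 2 and 10.2, 3.23 and 1.99 FPKM in library 3. S100a9 was not called, and Ngp and Camp were not tested. Padi4 and Cxcr2, also not tested, were lower in every nanoparticle library than in any vehicle library. In the mast cell and basophil list, Hdc was the gene called higher, at 0.196 to 0.474 FPKM in vehicle and 6.69 to 24.1 FPKM with nanoparticles. It passed the filter through the nanoparticle libraries alone and made up most of that list's sum with nanoparticles. Gata2 was the gene called lower. The part of these other cell types in the results was not tested.

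The genes lie in 6 places of the genome, and 3 pairs of them are neighbours (GENCODE M21 on GRCm38, all protein coding). P2rx7 (ENSMUSG00000029468) spans 122643911 to 122691432 and P2rx4 (ENSMUSG00000029470) 122707544 to 122729738 on the plus strand of chromosome 5, 16111 bases apart. P2ry6 (ENSMUSG00000048779) spans 100937630 to 100974649 and P2ry2 (ENSMUSG00000032860) 100996568 to 101012866 on the minus strand of chromosome 7, 21918 bases apart with no annotated gene wholly between them. P2ry14 (ENSMUSG00000036381) spans 59113855 to 59153618 and P2ry13 (ENSMUSG00000036362) 59207892 to 59210882 on the minus strand of chromosome 3, 54273 bases apart. Med12l runs through P2ry14 and P2ry13 on the opposite strand, but shares no exon base with them and was at means of 0.0513 FPKM in vehicle and 0.0284 FPKM in nanoparticle libraries. Adora2a (ENSMUSG00000020178) spans 75316877 to 75334784 on the plus strand of chromosome 10, Adora2b (ENSMUSG00000018500) 62248984 to 62266453 on the plus strand of chromosome 11, and Entpd1 (ENSMUSG00000048120) 40612366 to 40741602 on the plus strand of chromosome 19.

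Promoter sequences from RefSeq (GRCm38.p6) were found for 7 of the 9 genes, in 13 windows of 300 bases around their start sites, and none for Adora2a and P2ry6. They are shown, as the 250 bases before the start site, for the 3 genes with an entry that rose, for Entpd1, which fell, and for P2rx7, the neighbour of P2rx4. Capitals mark a match to the AP-1 motif TGANTCA.
P2ry14, outermost start (chr3:59153493-59153742, minus strand): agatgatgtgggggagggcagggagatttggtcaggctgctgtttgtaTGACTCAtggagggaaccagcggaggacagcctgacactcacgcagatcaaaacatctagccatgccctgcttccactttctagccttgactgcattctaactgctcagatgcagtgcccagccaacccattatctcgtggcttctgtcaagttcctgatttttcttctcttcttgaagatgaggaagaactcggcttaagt
P2ry14, next start (chr3:59131329-59131578, minus strand): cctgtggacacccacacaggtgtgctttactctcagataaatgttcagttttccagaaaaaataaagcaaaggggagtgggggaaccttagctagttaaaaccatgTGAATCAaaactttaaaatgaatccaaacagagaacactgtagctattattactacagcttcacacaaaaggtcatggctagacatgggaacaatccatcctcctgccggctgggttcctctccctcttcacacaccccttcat
Adora2b (chr11:62248734-62248983, plus strand): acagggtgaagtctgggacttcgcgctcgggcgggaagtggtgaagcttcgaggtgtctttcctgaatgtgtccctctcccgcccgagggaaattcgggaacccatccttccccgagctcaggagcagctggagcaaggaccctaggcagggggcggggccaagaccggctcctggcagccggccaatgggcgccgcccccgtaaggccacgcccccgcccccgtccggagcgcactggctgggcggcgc
P2rx4 (chr5:122707294-122707543, plus strand): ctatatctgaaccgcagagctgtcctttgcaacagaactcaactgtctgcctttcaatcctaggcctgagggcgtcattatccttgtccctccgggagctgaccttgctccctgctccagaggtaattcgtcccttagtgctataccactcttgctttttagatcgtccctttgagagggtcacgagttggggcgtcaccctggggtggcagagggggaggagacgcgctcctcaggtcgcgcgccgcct
P2rx7, outer start (chr5:122643677-122643926, plus strand): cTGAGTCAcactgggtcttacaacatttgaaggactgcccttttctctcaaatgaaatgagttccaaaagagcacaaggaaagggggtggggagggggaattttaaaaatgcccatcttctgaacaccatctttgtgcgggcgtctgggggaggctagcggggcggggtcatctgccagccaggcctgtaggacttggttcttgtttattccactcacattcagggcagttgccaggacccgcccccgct
Entpd1, outer start (chr19:40612116-40612365, plus strand): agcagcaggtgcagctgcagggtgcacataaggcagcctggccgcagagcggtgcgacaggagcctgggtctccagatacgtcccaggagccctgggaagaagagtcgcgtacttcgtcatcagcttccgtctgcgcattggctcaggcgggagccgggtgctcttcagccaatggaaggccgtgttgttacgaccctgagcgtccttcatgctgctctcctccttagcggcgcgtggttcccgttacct
The 4 motifs searched on both strands were AP-1 (TGANTCA), the cAMP response element CRE (TGACGTCA), the interferon-stimulated response element ISRE (the letters GAAA, then 2 bases of any kind, then GAAA again) and the NF-kB consensus. AP-1 matched in 3 of the 13 windows, both P2ry14 windows printed here and the P2rx7 window, against 7.81% of all 32851 RefSeq windows of this length. CRE, ISRE and NF-kB matched in 0 of the 13 windows, against 1.79%, 3.44% and 4.51% of all windows, and no match overlapped another. Base composition differed between the windows: G and C made up 70.0% of the Adora2b window and 60.3% of the P2rx4 window, but 43.3% to 49.3% of the 4 P2ry14 windows, with a median of 52.7% over all windows. A gain in RNA was thus seen in genes with starts of high and of low G and C content.

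Adora2a and Adora2b, the adenosine receptors that couple to the stimulatory G protein and raise cAMP, rose together. Adora2a was at 0.967, 1.14 and 1.05 FPKM in vehicle libraries 1 to 3 and at 33.4, 25.2 and 26.7 FPKM in nanoparticle libraries 1 to 3. It was thus the lowest of the 9 genes in vehicle cells, at 59 to 69 reads, and the groups were far apart. It reached 1 FPKM in 2 of the 3 vehicle libraries, so that it needed the nanoparticle libraries to pass the filter. The means were 1.05 ± 0.0848 and 28.4 ± 4.40 FPKM (SD, n = 3 each), 27.1-fold apart, and limma gave a log2 change of 3.83 with an SE of 0.129 (adjusted p = 3.1e-05). Adora2b, the receptor of lower affinity for adenosine, was at 15.2, 16.2 and 16.1 FPKM in vehicle and at 105, 66.8 and 69.1 FPKM in nanoparticle libraries. The groups were far apart, and nanoparticle library 1 was the highest. The means were 15.9 ± 0.556 and 80.5 ± 21.7 FPKM (SD, n = 3 each), 5.07-fold apart, and limma gave a log2 change of 2.24 with an SE of 0.190 (adjusted p = 4.4e-04). The summed level of both receptors was 16.2 to 17.4 FPKM in vehicle and 92.0 to 139 FPKM in nanoparticle libraries.

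The other adenosine receptors did not rise. Adora3, which couples to the inhibitory G protein, was at 2.42, 2.35 and 2.53 FPKM in vehicle and at 0.0164, 0.583 and 0.376 FPKM in nanoparticle libraries, a log2 change of -1.40 (limma adjusted p = 0.0017). It passed the filter through the vehicle libraries alone. Adora1, also coupled to the inhibitory G protein, had at most 1 read in any library, below the floor of 3 reads.

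P2ry14, the receptor for UDP-glucose and other UDP-sugars, rose, and P2ry6, the receptor for UDP, fell. P2ry14 was at 7.46, 8.45 and 8.41 FPKM in vehicle and at 32.0, 22.1 and 22.5 FPKM in nanoparticle libraries. Every nanoparticle library exceeded every vehicle library, and library 1 was again the highest. The means were 8.11 ± 0.560 and 25.5 ± 5.60 FPKM (SD, n = 3 each), 3.15-fold apart, and limma gave a log2 change of 1.52 with an SE of 0.163 (adjusted p = 9.7e-04). P2ry6, which signals through Gq to calcium and is known in phagocytes for uptake of particles and dead cells, was at 39.03, 36.6 and 38.2 FPKM in vehicle and at 6.60, 14.3 and 17.0 FPKM in nanoparticle libraries. It was the highest of the 9 genes in vehicle cells, and here nanoparticle library 1 was the lowest. The means were 37.9 ± 1.22 and 12.6 ± 5.39 FPKM (SD, n = 3 each), 3.01-fold apart, and limma gave a log2 change of -1.61 with an SE of 0.316 (adjusted p = 0.0098), which was -1.23 without nanoparticle library 1.

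P2ry2, the receptor for ATP and UTP and the neighbour of P2ry6, did not pass. It was at 5.32, 5.06 and 5.15 FPKM in vehicle and at 7.13, 4.69 and 4.90 FPKM in nanoparticle libraries, of which library 1 lay above and the others below every vehicle value. The log2 change was 0.07 (95% interval -0.30 to 0.44, limma adjusted p = 0.76), and it was -0.09 without nanoparticle library 1 and -0.22 with scaling by total reads. Relative to the median of all genes, the change with scaling by total reads was 0.063, against 0.073 on the deposited scale. P2ry13, a receptor for ADP that couples to the inhibitory G protein, was at 2.56, 3.71 and 2.75 FPKM in vehicle and at 1.89, 1.12 and 2.40 FPKM in nanoparticle libraries, on 47 to 186 reads. Its groups did not overlap, but their edges lay close together. The log2 change was -0.53 (95% interval -1.02 to -0.04), which did not pass (limma adjusted p = 0.094). With scaling by total reads it was -0.77 (limma adjusted p = 0.022), where the median of all tested genes was -0.28, and with upper-quartile scaling -0.68 (limma adjusted p = 0.039), where that median was -0.17.

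Of the other P2Y receptors, 3 of the 4 in the table were tested, and 2 were lower and 0 higher in limma, at an unadjusted p of 0.05, and in limma-voom. P2ry1, an ADP receptor coupled to Gq, was at 2.36, 1.93 and 2.31 FPKM in vehicle and at 0.814, 0.775 and 0.750 FPKM in nanoparticle libraries (log2 change -0.84, limma adjusted p = 0.0014), and passed the filter through the vehicle libraries alone. P2ry10, a receptor for lysophosphatidylserine in spite of its name, fell from 5.16 ± 0.486 to 2.88 ± 0.482 FPKM (SD, n = 3 each; limma log2 change -0.67, adjusted p = 0.0085). How reads shared with its close relative P2ry10b were counted is not stated, so the split between these genes is uncertain. P2ry12, the ADP receptor of platelets and microglia, was named here after its values were seen and was at 0.158 to 0.495 FPKM in vehicle and 0.0712 to 0.144 FPKM in nanoparticle libraries, too low to be tested.

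P2rx4 rose. This channel is opened by low ATP concentrations and is largely held in lysosomes of phagocytes. It was at 18.5, 17.2 and 16.5 FPKM in vehicle and at 32.5, 29.1 and 29.3 FPKM in nanoparticle libraries. The groups did not overlap, and the nanoparticle libraries lay closer together, relative to their mean, than for the other genes that rose. The means were 17.4 ± 1.02 and 30.3 ± 1.94 FPKM (SD, n = 3 each), 1.74-fold apart, and limma gave a log2 change of 0.77 with an SE of 0.101 (adjusted p = 0.0022). Scaling by total reads brought the change to 0.44 (limma adjusted p = 0.017). Relative to the median of all genes, it was 0.72 with that scaling, against 0.77 on the deposited scale.

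P2rx7, the channel that needs high ATP concentrations and triggers the NLRP3 inflammasome, did not rise with P2rx4. It was at 6.62, 5.87 and 6.13 FPKM in vehicle and at 5.91, 3.94 and 3.53 FPKM in nanoparticle libraries. Library 1 lay within the vehicle range, and libraries 2 and 3 lay below it. The log2 change was -0.42 (95% interval -0.84 to -0.01), which did not pass (limma adjusted p = 0.11). Without nanoparticle library 1 it was -0.61 and passed (limma adjusted p = 8.1e-04). It also passed with scaling by total reads, at -0.71 (limma adjusted p = 0.019), and with upper-quartile scaling, at -0.60 (limma adjusted p = 0.049). Relative to the median of all genes, these scaled changes were -0.43 each, against -0.42 on the deposited scale. Among the other ATP-gated channels only P2rx5, named here after its values were seen, was high enough to be tested, with 13.9, 15.2 and 17.4 FPKM in vehicle and 7.11, 18.6 and 22.5 FPKM in nanoparticle libraries (log2 change -0.09, limma adjusted p = 0.89).

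Entpd1, which encodes CD39, the ectonucleotidase that turns ATP and ADP into AMP, fell. It was at 25.0, 25.4 and 25.8 FPKM in vehicle and at 17.1, 11.5 and 11.5 FPKM in nanoparticle libraries. All nanoparticle libraries lay below all vehicle libraries, and library 1 lay closest to them. The means were 25.4 ± 0.395 and 13.4 ± 3.23 FPKM (SD, n = 3 each), 1.90-fold apart, and limma gave a log2 change of -0.90 with an SE of 0.165 (adjusted p = 0.0076). Nt5e, which encodes CD73, the enzyme for the next step from AMP to adenosine, was named after its values were seen. It was at 0.350, 0.434 and 0.440 FPKM in vehicle and at 0.157, 0.0562 and 0.139 FPKM in nanoparticle libraries, under the filter in both groups.

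**Figure D2:**
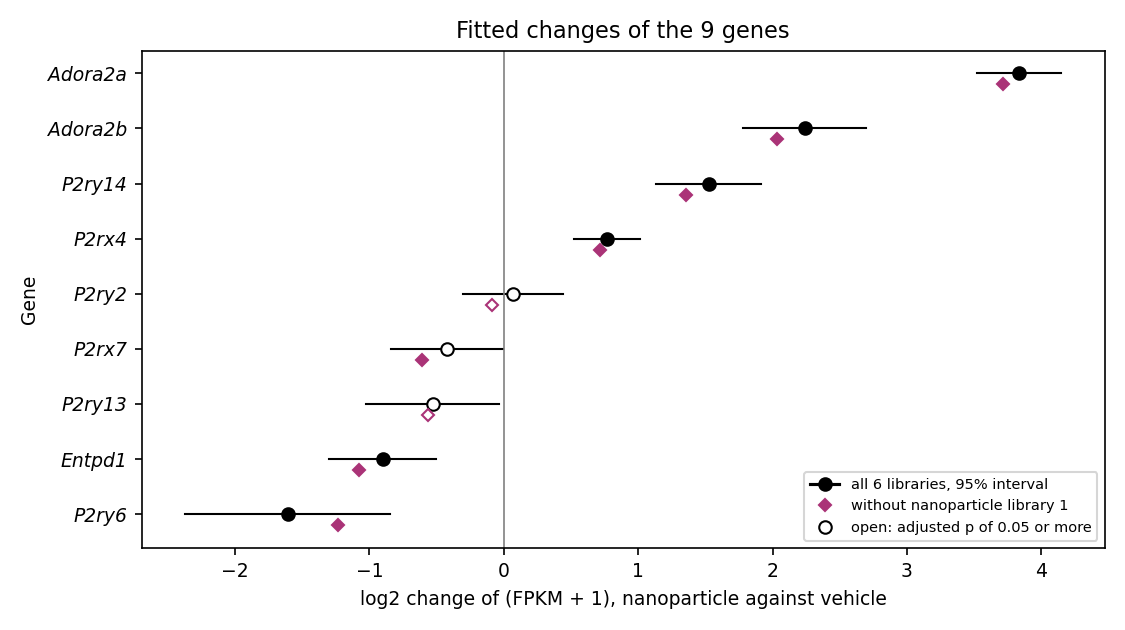
Log2 change of FPKM + 1 with nanoparticles for each gene, as circles with 95% intervals from limma for all 6 libraries and as diamonds without nanoparticle library 1; open symbols did not reach an adjusted p of 0.05. Changes run from 3.83 (Adora2a) to -1.61 (P2ry6), and of these fits P2rx7 passes only in the one without library 1.

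The order of the levels changed between the groups. In vehicle cells the order from high to low was P2ry6, Entpd1, P2rx4, Adora2b, P2ry14, P2rx7, P2ry2, P2ry13 and Adora2a, and the ranges of neighbours in that order did not overlap. With nanoparticles it was Adora2b, P2rx4, Adora2a, P2ry14, Entpd1, P2ry6, P2ry2, P2rx7 and P2ry13. There the ranges overlapped between P2rx4 and Adora2a, Adora2a and P2ry14, Entpd1 and P2ry6, P2ry6 and P2ry2, and P2ry2 and P2rx7, so the order of these neighbours is within the spread between libraries. Within each nanoparticle library, however, Adora2a exceeded P2ry14, and P2ry2 exceeded P2rx7. Adora2a went from percentile 3.76 of mean expression among tested genes in vehicle to percentile 83.3 with nanoparticles, and Adora2b from 76.5 to 93.4. P2ry6 went from percentile 90.0 to 68.2, and Entpd1 from 85.0 to 69.3.

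Ratios of genes within a library do not depend on the scaling between libraries. The pairs were chosen after the values were seen, and the ratios are given as a description without a test. Adora2b exceeded Adora2a by 15.8, 14.3 and 15.4 times in vehicle libraries 1 to 3 and by 3.15, 2.65 and 2.59 times in nanoparticle libraries 1 to 3, so that the receptors came closer in level while both rose. P2rx4 exceeded its neighbour P2rx7 by 2.80, 2.94 and 2.69 times in vehicle and by 5.51, 7.38 and 8.31 times in nanoparticle libraries. P2ry6 was at 7.34, 7.24 and 7.42 times its neighbour P2ry2 in vehicle, a narrow range, and at 0.926, 3.05 and 3.46 times in nanoparticle libraries. In nanoparticle library 1, P2ry6 thus fell below P2ry2. P2ry14 was at 2.91, 2.28 and 3.06 times P2ry13 in vehicle and at 16.9, 19.6 and 9.39 times in nanoparticle libraries.

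P2ry14 over P2ry6, the receptors for UDP-sugars and UDP, turned from 0.191, 0.231 and 0.220 in vehicle to 4.85, 1.54 and 1.33 in nanoparticle libraries. The ratio of Adora2b to Entpd1 turned from 0.610, 0.639 and 0.627 to 6.17, 5.82 and 5.99. It varied less between nanoparticle libraries (5.99 ± 0.176, SD, n = 3) than either gene did, and nanoparticle library 1 was the highest of its group for both. Library 1 was the highest nanoparticle library for 7 of the 9 genes and the lowest for P2ry6, against 42.3% and 46.3% of tested genes. Among these 7 genes it exceeded the mean of libraries 2 and 3 by 1.11 times (P2rx4) to 1.58 times (P2rx7), and the part of whatever sets this library apart was not tested.

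**Figure D3:**
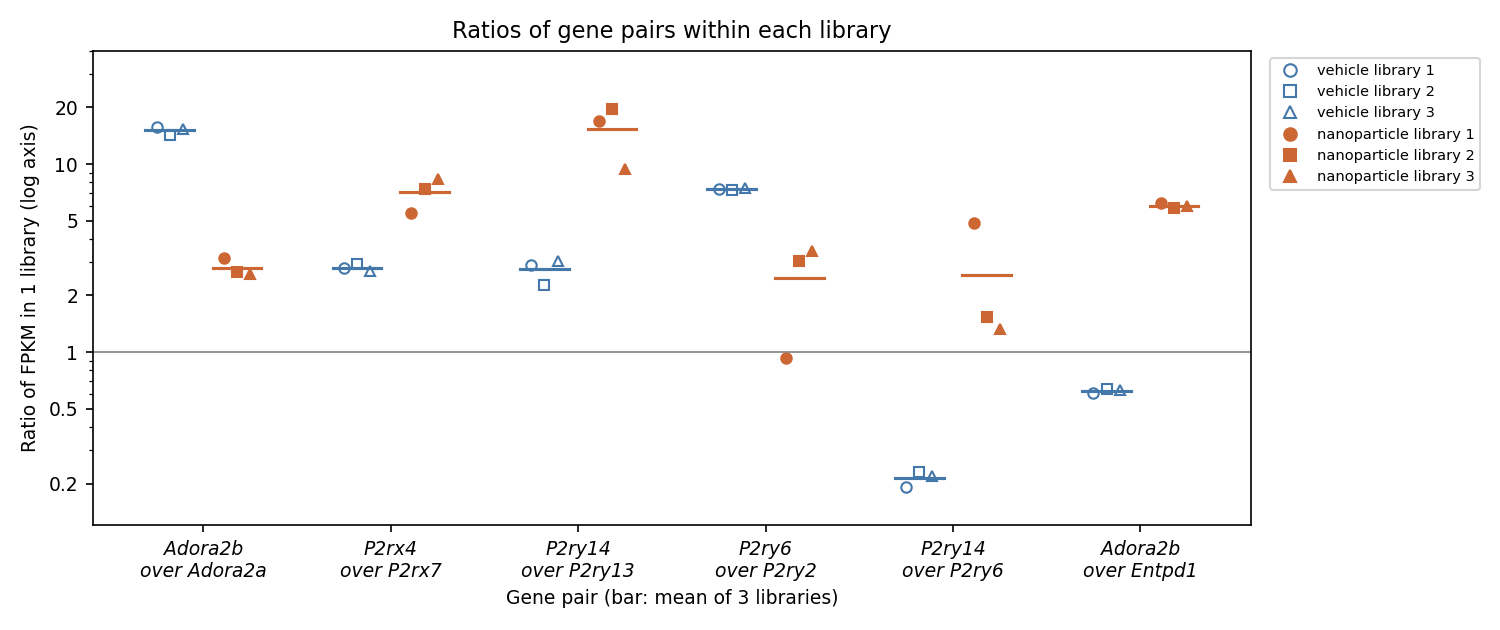
Ratio of FPKM between 2 genes in each library on a log axis, for 6 pairs, with open blue points for vehicle, filled orange points for nanoparticle libraries and bars at the mean of 3. In each pair the groups lie apart, and P2ry14 over P2ry6 and Adora2b over Entpd1 cross from below 1 in vehicle to above 1 in nanoparticle libraries.

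Genes that surround these receptors were taken from 11 lists of 104 genes, of which 101 were in the table and 71 were tested. In all, 18 were higher and 18 lower, with a median log2 change of -0.09. The share over all tested genes, for comparison with each list, was 17.0% higher and 16.2% lower. Among the ecto-enzymes, 3 of 11 were tested and these 3 were higher. Of the 8 that were too low to be tested, Nt5e, Enpp1, Dpp4 and Enpp3 were lower and Enpp2 was higher in every nanoparticle library than in any vehicle library (named after their values were seen). Enpp3 had at most 2 reads in any library, below the floor of 3 reads. The Dpp4 groups lay close together, at no less than 0.864 FPKM in vehicle and no more than 0.813 FPKM with nanoparticles. Among tested genes the groups did not overlap in 52.1%. Cd38, which consumes extracellular NAD, went from 7.49 ± 0.546 to 65.4 ± 4.35 FPKM (SD, n = 3 each; limma log2 change 2.97, adjusted p = 3.2e-05). Bst1, a relative of Cd38 with the same substrate, went from 66.6 ± 3.01 to 138 ± 12.5 FPKM (SD, n = 3 each; limma log2 change 1.04, adjusted p = 0.0012). Enpp4, an enzyme that cleaves dinucleoside polyphosphates, was at 0.198 to 0.273 FPKM in vehicle and at 9.66, 1.80 and 2.22 FPKM in nanoparticle libraries (limma adjusted p = 0.028). It passed the filter through the nanoparticle libraries alone, and the call was lost without vehicle library 1, 2 or 3 (limma adjusted p = 0.088, 0.087 and 0.082) and with no filter on low values (limma adjusted p = 0.070). Neither Cd38 nor Bst1 acts mainly on ATP, the substrate of CD39. The intracellular diphosphatases of the same family as Entpd1 had 3 of 4 genes tested and 0 called by limma or limma-voom, with adjusted p-values of 0.069 to 0.34 in limma. At an unadjusted p of 0.05, 1 of them passed, lower with nanoparticles.

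On the side of nucleotide release, 8 of 12 genes were tested, 2 higher and 1 lower. Panx1, the pannexin channel through which ATP leaves stressed cells, went from 5.65 ± 0.444 to 9.35 ± 0.717 FPKM (SD, n = 3 each; limma log2 change 0.64, adjusted p = 0.0047). Xkr8, a lipid scramblase of dying cells and not a nucleotide channel, went from 1.82 ± 0.0213 to 10.3 ± 1.11 FPKM (SD, n = 3 each; limma log2 change 1.99, adjusted p = 9.6e-05). Slc17a9, the transporter that loads ATP into vesicles, was at 1.71, 1.43 and 1.81 FPKM in vehicle and at 0.536, 1.23 and 0.762 FPKM in nanoparticle libraries. Its call (log2 change -0.54, limma adjusted p = 0.043) was lost without vehicle library 1, 2 or 3 (limma adjusted p = 0.13, 0.086 and 0.14) and without nanoparticle library 3 (limma adjusted p = 0.099). It was also lost with no filter (limma adjusted p = 0.11) and with a pseudocount of 0.1 (limma adjusted p = 0.055). For adenosine uptake and breakdown, 7 of 10 genes were tested, 2 higher and 1 lower. Pnp, the purine nucleoside phosphorylase, went from 12.5 ± 0.506 to 76.5 ± 17.2 FPKM (SD, n = 3 each, limma adjusted p = 2.4e-04), and Ampd3, an AMP deaminase, from 3.27 ± 0.0304 to 18.2 ± 7.60 FPKM (SD, n = 3 each, limma adjusted p = 0.0017). Pnp has a near-identical copy, Pnp2, and the split of reads between them is uncertain. Adk, the kinase that turns adenosine back into AMP, fell from 3.56 ± 0.136 to 1.29 ± 0.394 FPKM (SD, n = 3 each, limma adjusted p = 0.0032).

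The genes of the inflammasome and IL-1 release list are linked to P2rx7 but are not particular to it. All 11 were tested, 7 higher and 1 lower, with a median log2 change of 1.62. Over all tested genes 17.0% were higher and 16.2% lower. The gene called lower was Kcnk6, named after its values were seen, with means of 19.5 and 8.56 FPKM in vehicle and nanoparticle libraries. Its call was lost without vehicle library 1, 2 or 3 (limma adjusted p = 0.0556, 0.0627 and 0.0615). Nlrp3, called higher and also named after its values were seen, had a mean of 19.5 FPKM in vehicle. It was at 127, 55.9 and 40.3 FPKM in nanoparticle libraries 1 to 3. Its call was likewise lost without vehicle library 1, 2 or 3 (limma adjusted p = 0.0682, 0.0638 and 0.0613). Casp4, the caspase that senses cytosolic lipopolysaccharide, was at 1.95 to 2.03 FPKM in vehicle and at 51.3, 27.6 and 26.6 FPKM in nanoparticle libraries (log2 change 3.53, limma adjusted p = 2.5e-04). Il1b went from 8.10 ± 0.646 to 2787 ± 95.5 FPKM (SD, n = 3 each; limma log2 change 8.26, adjusted p = 2.0e-06). Il1a, like Il1b a pro-inflammatory cytokine of the IL-1 family, went from 11.8 ± 0.468 to 2121 ± 1138 FPKM (SD, n = 3 each; limma log2 change 7.24, adjusted p = 8.1e-05), and Ninj1, needed for rupture of the plasma membrane in lytic death, from 51.8 ± 3.29 to 162 ± 23.6 FPKM (SD, n = 3 each; limma log2 change 1.62, adjusted p = 4.8e-04).

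Of the G protein and adenylyl cyclase genes, which are not particular to the adenosine receptors, 14 of 16 were tested, 2 higher and 3 lower. The adenylyl cyclases, which make cAMP, went both ways: Adcy7 fell from 40.3 ± 1.52 to 14.7 ± 1.77 FPKM (SD, n = 3 each; limma log2 change -1.40, adjusted p = 4.2e-04). Adcy6 was at 0.148, 0.305 and 0.198 FPKM in vehicle and at 2.82, 3.23 and 2.74 FPKM in nanoparticle libraries (log2 change 1.69, limma adjusted p = 1.6e-04), and passed the filter through the nanoparticle libraries alone. Among genes that read or degrade cAMP, 12 of 17 were tested, 2 higher and 5 lower. Pde4b, a phosphodiesterase of immune cells, was at 0.870, 0.697 and 0.712 FPKM in vehicle and at 17.7, 6.86 and 5.003 FPKM in nanoparticle libraries (log2 change 2.45, limma adjusted p = 0.0050), again passing the filter through the nanoparticle libraries alone. Pde3b, another phosphodiesterase, fell from 1.34 ± 0.0932 to 0.376 ± 0.0461 FPKM (SD, n = 3 each, limma adjusted p = 0.0017). It passed the filter through the vehicle libraries alone. The other called phosphodiesterases of the list were lower as well. Among them Pde4a, named after its values were seen, was near the threshold (limma adjusted p = 0.0468). Its call was lost without vehicle library 1, 2 or 3 (limma adjusted p = 0.13, 0.131 and 0.136) and without nanoparticle library 2 or 3 (limma adjusted p = 0.116 and 0.112). It was also lost with no filter (limma adjusted p = 0.114) and with a pseudocount of 0.1 (limma adjusted p = 0.0618). Nr4a3, a nuclear receptor that cAMP and other signals induce, went from 5.69 ± 2.10 to 25.7 ± 3.29 FPKM (SD, n = 3 each, limma adjusted p = 0.0019). Prkacb, a catalytic subunit of the cAMP-dependent kinase, fell from 9.94 ± 0.159 to 5.47 ± 0.627 FPKM (SD, n = 3 each, limma adjusted p = 0.0025).

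Of the phospholipase C, protein kinase C and IP3 receptor genes, which are not particular to the Gq-coupled receptors P2ry2, P2ry6 and P2ry1, 8 of 9 were tested. In limma and in limma-voom 0 were higher and 4 lower, with a median log2 change of -0.44 in limma. The call of Itpr1 was lost without vehicle library 1, 2 or 3 (limma adjusted p = 0.0675, 0.0538 and 0.0561). It was also lost with no filter (limma adjusted p = 0.0516). At an unadjusted p of 0.05, 1 was higher and 4 were lower. Plcb2, a phospholipase C that G proteins activate, fell from 29.6 ± 1.61 to 9.09 ± 1.43 FPKM (SD, n = 3 each; limma log2 change -1.61, adjusted p = 3.9e-04). Prkcb, a protein kinase C, fell from 27.1 ± 1.60 to 12.4 ± 2.14 FPKM (SD, n = 3 each; limma log2 change -1.08, adjusted p = 0.0023).

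**Figure D4:**
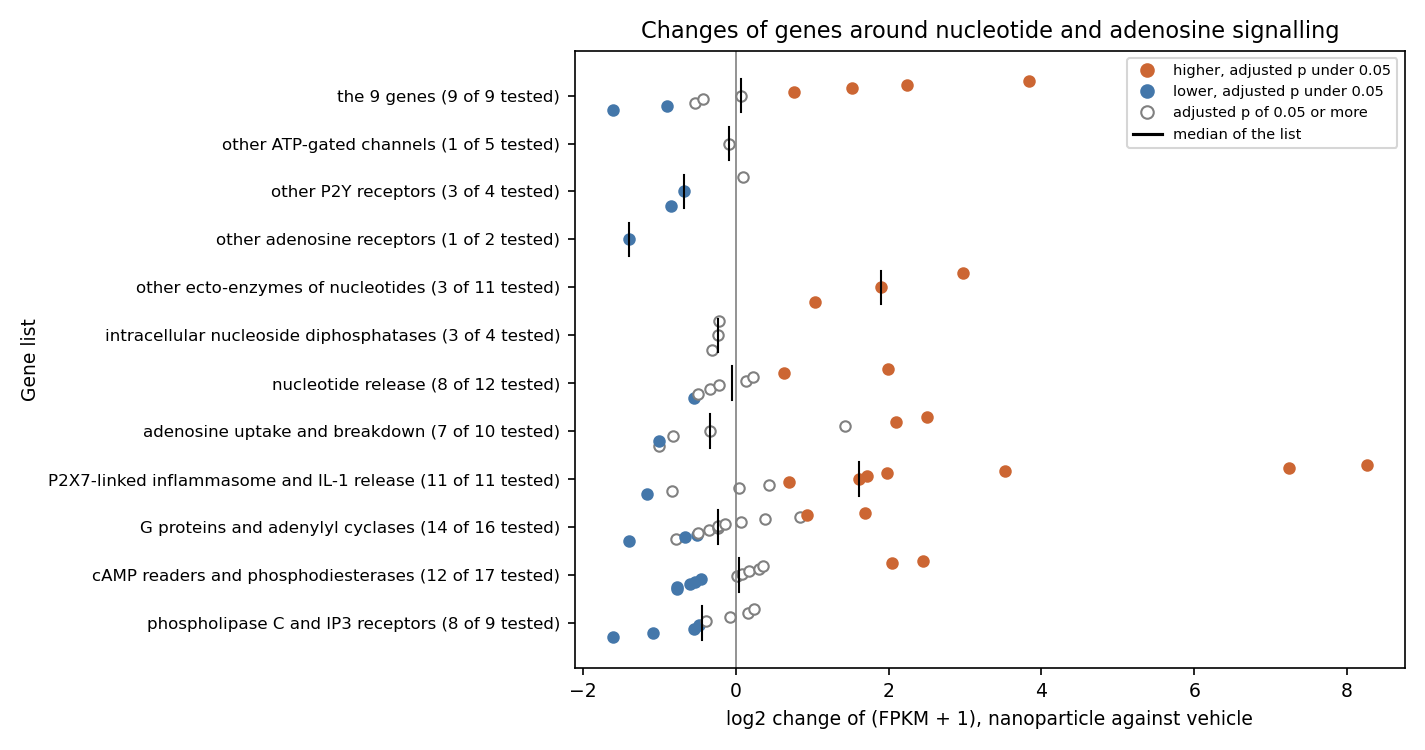
Log2 change of FPKM + 1 for every tested gene of the 9 receptors and enzyme and of 11 surrounding lists, 1 point per gene, filled where the adjusted p was under 0.05 (orange higher, blue lower), with a line at the list's median. The 3 tested ecto-enzymes lie to the right of 0, among them Enpp4, which passed the filter through the nanoparticle libraries alone, and the 8 others of that list were too low to be tested and are not drawn. The 4 called phospholipase C and IP3 receptor genes lie to the left of 0.

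The genes closest in pattern were found by the distance between log2(FPKM + 1) profiles over the 6 libraries, each centred on its vehicle mean, among all tested genes. For Adora2a, the gene with the largest increase of the 9, they were Ifi47 (distance 0.307), Ifitm3 (0.312) and Zbp1 (0.324), and 8 genes lay within 0.5. For P2ry6, the gene with the largest decrease, they were Sort1 (distance 0.142), Susd3 (0.201) and Cenpa (0.205), and 40 genes lay within 0.5. Sort1 went from 17.5 ± 0.704 to 5.46 ± 2.45 FPKM (SD, n = 3 each), with nanoparticle library 1, at 2.64 FPKM, again the lowest.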

How the data were processed

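The submitters' processing notes name CASAVA, STAR 2.5, HTSeq, edgeR 3.16.5 and DESeq2 2 and the builds hg19 and mm10, with no role or order. Per the labels' protocols, libraries were made with a NEBNext Ultra II kit from 1 µg of total RNA. The deposited tables, 1 of them named for read counts, hold identical values for 23398 genes. These deposited values are not whole numbers and were read as FPKM. No label or header names the unit, which rests on this check: multiplied by the exon length in GENCODE M21 (GRCm38) and 1 scale per library, 95.8% to 96.1% of values above 0 became whole reads within 0.01. These scales matched median-of-ratios size factors within 0.00975%, so the scaling would remove a change common to most genes.

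Because the values are not counts, the 10682 genes that reached 1 FPKM in 3 or more libraries were tested with limma 3.58.1 (R 4.3.3) on log2(FPKM + 1), with group as its single term, a mean-variance trend and Benjamini-Hochberg adjustment over all tested genes. The script was tested on simulated data. Values resting on at most 3 recovered reads are at the floor, which covers counting error only. The other settings tried were a pseudocount of 0.1, no filter, scaling by total reads or the upper quartile, no trend, limma-voom on recovered reads, a replicate block and leaving out each library. The strand setting and the handling of shared reads are not given in the sources used here.

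The members, lists and tests were chosen with earlier results of these data known. All 9 members are named. From each other list, genes past the threshold may be named, at most 4 by smallest adjusted p, as well as genes under the floor in every library, and for pattern the 3 nearest genes of the members with the largest increase and decrease. Figures were drawn with matplotlib 3.10.9 under Python 3.11.15.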

Additional observations from a re-analysis of the deposited data

How the results depend on the processing

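The directions and calls of Adora2a, Adora2b, P2ry14, P2rx4, P2ry6 and Entpd1 were the same in all 13 alternative settings, with log2 changes of 3.58 to 4.73, 1.91 to 2.36, 1.204 to 1.63, 0.44 to 0.81, -1.93 to -1.23 and -1.23 to -0.81. The sign of P2ry2 turned with scaling by total reads (-0.22), with upper-quartile scaling (-0.11) and without nanoparticle library 1, and ran from -0.091 to 0.17 over the fits that leave out 1 library. It passed in none of the 13. P2rx7 and P2ry13 passed in the settings given with their values. Over all genes, 3550 passed (1817 higher, 1733 lower). Scaling by total reads gave 1108 higher and 3613 lower, and upper-quartile scaling 1318 and 2720, the median change of all genes moving to -0.28 and -0.17 by the construction of these scalings. Leaving out 1 library gave 2141 to 6923 genes, 1114 to 3660 higher and 1027 to 3263 lower, the fewest without vehicle library 3 and the most without nanoparticle library 1, and the cause was not tested. The same fits gave 26 to 61 of the 71 tested genes of the surrounding lists, with 10 to 34 lower, and scaling by total reads gave 30 lower.

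Same-numbered libraries share a number in their labels, and no pairing is stated. Their deviations from the group means correlated at 0.0654, 0.113 and -0.0577, and 4 of 6 libraries correlated best with their own number. With 3 libraries per group these values cannot show whether the libraries were paired. With the replicate number as a block, 2785 genes and 6 of the 9 genes passed. Among the genes named from the surrounding lists, the block ended the calls of Slc17a9 (limma adjusted p = 0.089), Itpr1 (limma adjusted p = 0.0578) and Pde4a (limma adjusted p = 0.074). Depth was lowest for Adora2a in vehicle (59 to 69 reads) and for P2ry13 with nanoparticles (47 to 117 reads).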

Other observations

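Some genes of nucleotide handling were high mainly in nanoparticle library 1. They were named after their values were seen. Slc28a2, a sodium-driven nucleoside transporter, was at 3.05, 2.88 and 2.71 FPKM in vehicle libraries 1 to 3 and at 27.0, 4.997 and 5.78 FPKM in nanoparticle libraries 1 to 3, and did not pass (log2 change 1.43, limma adjusted p = 0.10). Enpp2, which encodes the lysophospholipase autotaxin, was at 0.0332 to 0.0786 FPKM in vehicle and at 2.69, 0.293 and 0.251 FPKM in nanoparticle libraries, too low in most libraries to be tested.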
